A study of Mus musculus with 4 samples.

Results

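The genes described here are the R-spondins Rspo1, Rspo2, Rspo3 and Rspo4, the receptors Lgr4, Lgr5 and Lgr6, and the ubiquitin ligases Znrf3 and Rnf43. They were chosen by name as a known signaling module, and all 9 were found among the 32285 genes of the count tables. R-spondins are secreted proteins that amplify Wnt signals. An R-spondin holds an Lgr receptor and one of the membrane ligases Znrf3 and Rnf43 together, the ligase is taken off the cell surface, and the Frizzled receptors that it would have marked for degradation stay there. Both ligases are themselves Wnt target genes in many tissues, and Lgr5 and Lgr6 are known as stem cell markers in several epithelia.

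In the GRCm38 build, to which the reads were aligned, the ligand genes lie Rspo1 at chr4:124986430-125009099 (plus strand), Rspo2 at chr15:43020794-43170826 (minus strand), Rspo3 at chr10:29452416-29535867 (minus strand) and Rspo4 at chr2:151842927-151874668 (plus strand). The receptor genes are Lgr4 at chr2:109917647-110014257 (plus strand), Lgr5 at chr10:115450311-115587780 (minus strand) and Lgr6 at chr1:134983301-135105276 (minus strand), and the ligase genes Znrf3 at chr11:5276324-5444847 (minus strand) and Rnf43 at chr11:87662722-87735539 (plus strand). All UMIs within a gene were summed, so the isoforms are not separated.

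The data were single-cell RNA profiles of dissociated tissue from the growing end of the lower incisor of mice at postnatal day 15, in 2 WT and 2 Din-KO libraries. In the Din-KO mice a germline Cre had removed exon 2 of Din (4930453N24Rik) and left a LacZ reporter in place, and the study asked how loss of this gene affects the mesenchymal stem cells that renew the tooth. No other treatment was named, and the strain background, the number of mice in a library and their sex were not given in the sources used here. Cells carrying Y-linked transcripts made up 38.9% and 36.8% of the Din-KO libraries and 0% of the WT libraries, so over all cells sex and genotype cannot be told apart. Cells with Xist and no Y-linked transcript made up 38.2% and 45.2% of the Din-KO libraries, and in fits on such cells alone no member was called between the genotypes in mesenchyme-like cells or their subtypes.

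The libraries held 32198098 to 54348039 unique molecular identifiers (UMIs, counted transcript molecules), and 11310 of 20502 barcodes passed the quality filters, with a median of 8016 to 11587.5 UMIs per cell. At most 4 kept barcodes were shared by any pair of libraries. Clusters were formed without the 9 genes and without 5 lists of Wnt pathway genes, and were named from marker genes. The mesenchyme-like cells (7157, with 8 of 8 mesenchymal markers detected) divided into dental pulp-like (5226 cells, 11 of 12 markers), dental follicle-like (1425 cells, 10 of 11) and odontoblast-like cells (506 cells, 10 of 10). Of the odontoblast-like clusters, the one led by Smpd3 (281 cells) had 6 of the 10 markers detected. The one led by Bglap (225 cells) had all 10. Cell recovery differed between the replicate numbers. Pulp-like cells numbered 2209 in WT replicate 1 and 2503 in Din-KO replicate 1, against 290 and 224 in WT and Din-KO replicate 2. Levels below are UMIs of a gene per 1000000 UMIs (CPM) summed over the cells of a class in one library, so they average over the cells and cannot separate fewer expressing cells from less RNA per cell. Reads near the 3' end were counted, and the 9 genes are compared across cells and not with each other.

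**Figure D1:**
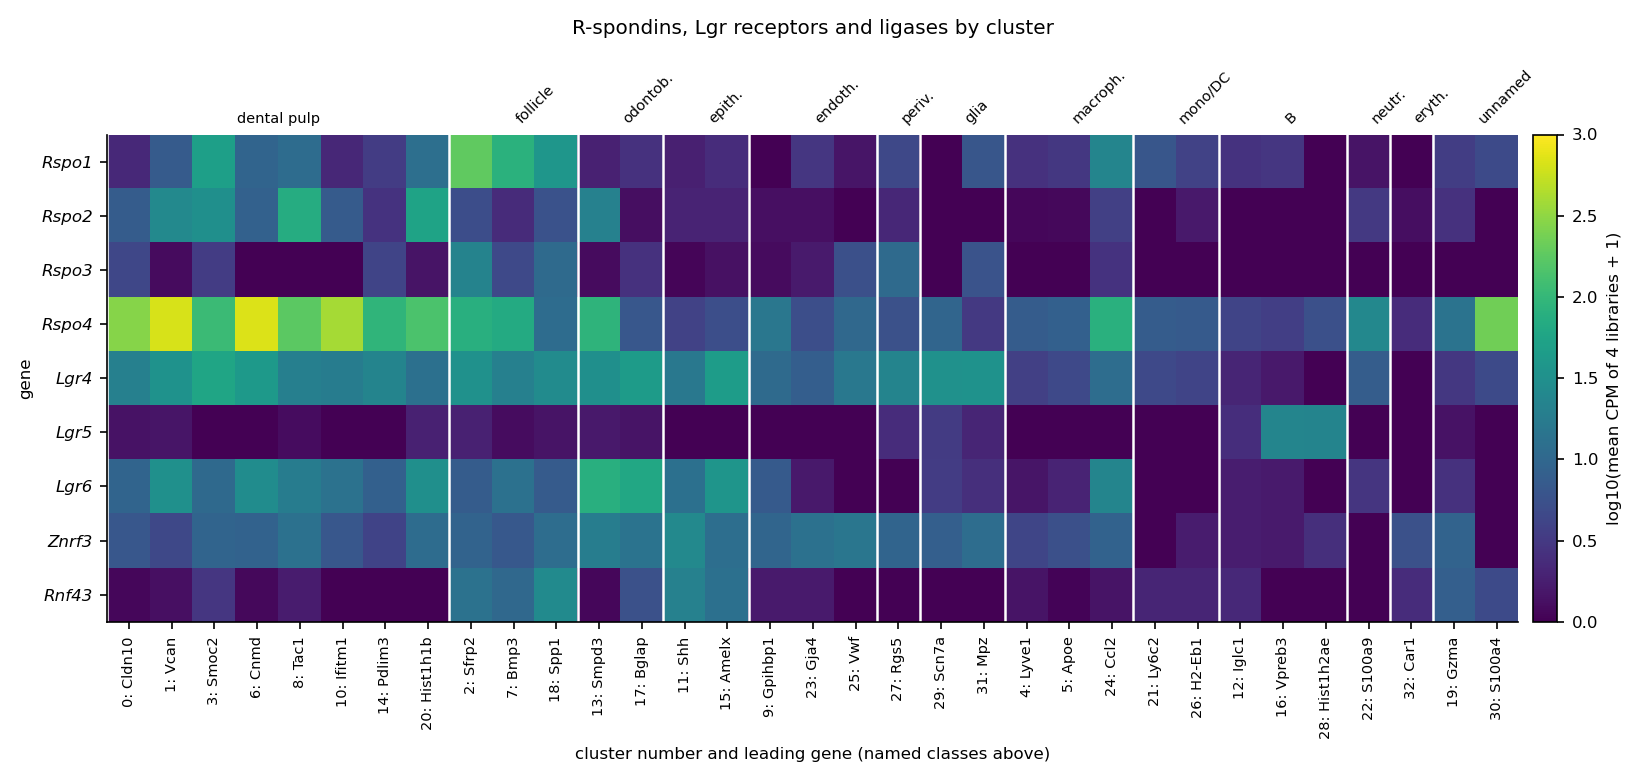
Mean level of each of the 9 genes over the 4 libraries in 33 clusters, as log10(CPM + 1). Columns are clusters with their number and leading gene, grouped by the named class above them, and rows are genes. Rspo4 is bright in the pulp-like clusters and in an unnamed cluster of 47 cells, Rspo1 in the follicle-like ones, Rnf43 in the follicle-like and epithelium-like ones, Lgr6 in the odontoblast-like ones and Lgr5 in 2 B-like clusters.

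The R-spondins divided between pulp and follicle. Rspo4, best known for its need in nail formation, was found mainly in pulp-like cells. Its level there was 530 CPM in WT replicate 1, 450 in Din-KO replicate 1, 260 in WT replicate 2 and 182 in Din-KO replicate 2 (mean 355 ± 162, SD, n = 4 libraries). The replicate 1 libraries were higher than the replicate 2 libraries, and every library was higher in pulp-like than in any other class. Dental follicle-like cells held 102, 63.0, 47.7 and 35.7 CPM in the same order, and odontoblast-like cells 86.3, 64.7, 28.9 and 16.7. The part of free RNA in these follicle-like and odontoblast-like levels was not tested, and they are compared with red blood cell barcodes below. Of all 24582 Rspo4 UMIs in kept cells, 88.7% came from pulp-like cells.

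Within the pulp Rspo4 was uneven. The cluster led by Cnmd and Gpha2 (564 cells) gave 728, 867, 585 and 623 CPM in WT 1, Din-KO 1, WT 2 and Din-KO 2, and the cluster led by Vcan (1258 cells) gave 818, 765, 586 and 433. These were the clusters of highest level, and their libraries overlapped. The cluster led by Smoc2 (674 cells) was lower in every library, at 213, 154, 24.5 and 42 CPM. In the odontoblast lineage the cluster led by Smpd3 (281 cells), the gene of a sphingomyelinase needed for dentin and bone mineral, held 88.7 ± 44.9 CPM, and the cluster led by Bglap and Dspp (225 cells), genes of bone and dentin matrix proteins, held 5.55 ± 1.69.

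Rspo4 was also counted at low levels in cells of other types. A UMI of Rspo4 was found in 78.2% of pulp-like cells (95% exact binomial interval 77.0 to 79.3%, counting error only) at a median of 8122.5 UMIs per cell, against 4.61% (1.87 to 9.26%) of neutrophil-like cells at 6732.5 UMIs and 1.53% of B-like cells at 3268.5 UMIs. With each cell thinned to 2000 UMIs, the pulp-like share was 42.2 ± 12.9% (SD, n = 4). Neutrophil-like cells held 40.4, 43.4, 3.44 and 8.47 CPM in WT 1, Din-KO 1, WT 2 and Din-KO 2, macrophage-like cells 43.4, 25.8, 6.15 and 2.77 CPM and endothelium-like cells 21.5, 15.3, 6.32 and 1.24 CPM. Barcodes made up of over 50% hemoglobin transcripts, which come from red blood cells, held 45.9, 74.0, 7.73 and 2.61 CPM, on 20, 15, 3 and 1 UMIs. In Din-KO replicate 1 the level in these barcodes was above the follicle-like and odontoblast-like levels given above. In the other libraries it was below both. The low levels in cells of other types and in these barcodes were higher in replicate 1 than in replicate 2, as in the pulp. The part of free RNA in them was not tested.

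Rspo2, which is needed for limb and lung growth, was also a ligand of the pulp but in other clusters. Pulp-like cells held 14.8, 28.7, 32.8 and 42.4 CPM (mean 29.7 ± 11.5), follicle-like cells 2.52, 3.36, 2.11 and 3.15, and odontoblast-like cells 12.6, 11.6, 4.18 and 12.0. Among these subtypes every library was highest in pulp-like and lowest in follicle-like cells. Barcodes of over 50% hemoglobin held 6.88, 9.87, 2.58 and 2.61 CPM of Rspo2 in the same library order, on 3, 2, 1 and 1 UMIs. The follicle-like level was thus near or below that of these barcodes, and the part of free RNA in it was not tested. In all 4 libraries, levels above the pulp-like value of the same library were found in the cluster led by Tac1 (526 cells), at 58.4, 84.7, 66.9 and 72.9 CPM, and in the cycling cluster led by the histone gene Hist1h1b and by Top2a (165 cells), at 50.4, 43.1, 51.0 and 71.3. Of the 1148 Rspo2 UMIs of pulp-like cells the Tac1 cluster gave 491, the Vcan cluster 225, the cycling cluster 178 and the Smoc2 cluster 154. In these clusters 48.3% and 53.3% of cells had a UMI of Rspo2, against 13.9% of all pulp-like cells. The odontoblast-like cluster led by Smpd3 held 21.0, 19.1, 12.2 and 26.1 CPM, and only 2 UMIs were found in the Bglap and Dspp cluster. No UMI was seen in 590 B-like cells, which allows a share of cells with a UMI of up to 0.508% (3 cells of the total, for counting error only), and says nothing of cells that express the gene below detection.

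Rspo1, known from ovary development, was the ligand of the follicle. Follicle-like cells held 104, 146, 132 and 93.6 CPM (mean 119 ± 24.2), and pulp-like cells 7.0, 10.5, 7.49 and 12.1 (mean 9.27 ± 2.43). All 4 libraries were higher in follicle than in pulp with no overlap, and 84.7% of the 3540 UMIs came from follicle-like cells. The follicle cluster led by Sfrp2 (697 cells), a gene for a secreted Wnt-binding protein, was highest, at 173, 208, 220 and 133 CPM. The Bmp3 cluster (526 cells) was at 84.8, 86.4, 82.2 and 73.1, below it in every library, and the cluster led by Spp1 and Mmp13 (202 cells) at 30.4, 51.0, 32.7 and 34.4, lower again. In the pulp, the Smoc2 cluster carried Rspo1 at 44.3, 48.1, 35.0 and 64.6 CPM. A UMI was found in 54.4% (51.8 to 57.0%) of follicle-like cells and 6.37% of pulp-like cells, or 17.3% and 2.48% at 2000 UMIs per cell.

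Rspo3, a ligand of blood vessel and placenta growth, was the least counted of the 4, with 378 UMIs of which 81.5% were in follicle-like cells. Follicle-like cells held 3.10, 5.53, 12.9 and 24.2 CPM (mean 11.4 ± 9.49). The replicate 2 libraries were above the replicate 1 libraries, so that the spread over libraries was nearly as large as the mean. The Sfrp2 cluster gave 5.17, 7.61, 27.9 and 43.3 CPM, with 237 of the UMIs, and showed the same order. Pulp-like cells held 0.449 to 2.41 CPM. Perivascular-like cells were at 9.97 ± 6.30 CPM, which rests on 8 UMIs.

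**Figure D2:**
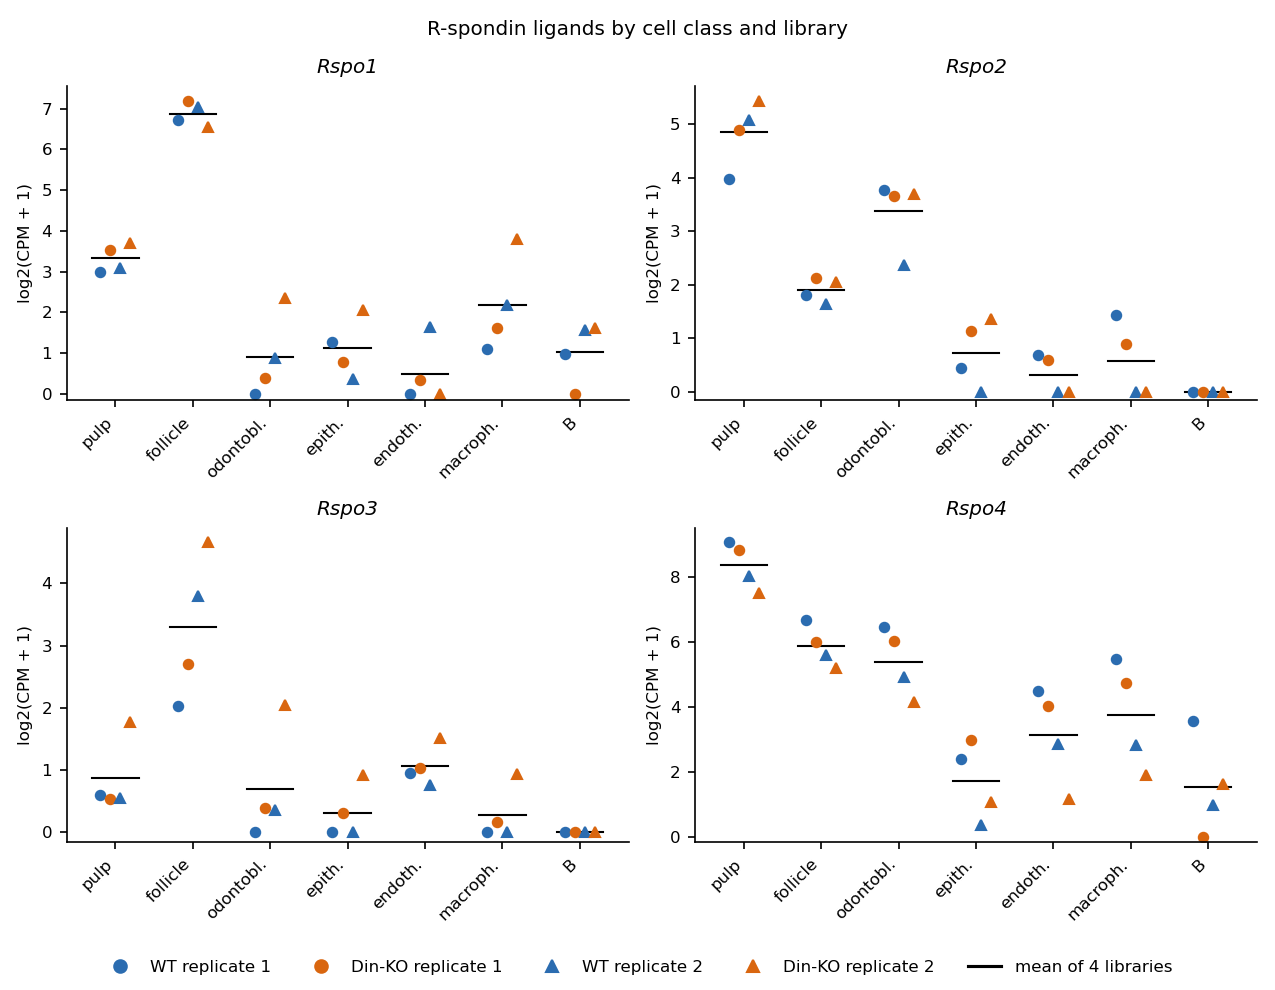
Level of each R-spondin as log2(CPM + 1) in 7 cell classes, 1 point for each library, with the mean of the 4 libraries as a bar. Blue points are WT and orange points Din-KO, circles are replicate 1 and triangles replicate 2. Rspo2 and Rspo4 are highest in pulp-like cells and Rspo1 and Rspo3 in follicle-like cells, while WT and Din-KO points are mixed in most classes.

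The receptors were placed differently from the ligands. Lgr4, the most widely used receptor of the family, was present in all the mesenchymal subtypes and in epithelium-like cells. In every library it was higher in odontoblast-like than in pulp-like cells. It was at 20.6, 24.7, 25.5 and 32.4 CPM in pulp-like cells (mean 25.8 ± 4.89), 26.2, 28.0, 25.3 and 24.9 in follicle-like cells (26.1 ± 1.40) and 26.7, 30.1, 45.4 and 40.6 in odontoblast-like cells (35.7 ± 8.73). Epithelium-like cells were at 15.7, 18.6, 53.0 and 51.5 CPM with the replicate 2 libraries far above the others, and glia-like cells at 33.7 ± 8.89. Neighbors in this order overlapped. Endothelium-like cells (10.2 CPM) and B-like cells (0.490 CPM) were lower. Within the pulp the Smoc2 cluster was highest, at 42.4, 61.4, 42 and 83.9 CPM. In the epithelium the cluster led by Amelx gave 445 of the 538 UMIs of Lgr4.

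Lgr6, which marks stem cells of the skin and is expressed in bone-forming cells, was highest in the odontoblast lineage among the mesenchymal subtypes. Its levels there overlapped with those of epithelium-like cells, given below. Odontoblast-like cells held 77.7, 81.3, 42 and 62.4 CPM (mean 65.9 ± 17.9), pulp-like cells 13, 13.6, 27.1 and 21.0 (18.7 ± 6.74) and follicle-like cells 5.43, 8.29, 13.8 and 8.34 (8.97 ± 3.51). Among these 3 subtypes each library was highest in odontoblast-like cells and lowest in follicle-like cells. The cluster led by Smpd3 held 72.1, 66.9, 63.6 and 107 CPM, and the Bglap and Dspp cluster 86.2, 102, 31.9 and 25. In replicate 1 the Bglap and Dspp cluster was the higher of the pair and in replicate 2 the lower, so no order between them was common to the libraries.

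Of the 2261 Lgr6 UMIs, 33.7% were in odontoblast-like, 31.9% in pulp-like and 20.7% in epithelium-like cells. The epithelium-like level differed widely between libraries, at 2.14, 13.8, 44.2 and 56.0 CPM (mean 29.0 ± 25.2). Most of this came from the cluster led by Amelx (250 cells), the gene of the main enamel matrix protein, at 1.38, 16.5, 50.1 and 75.9 CPM. That cluster gave 24 of 145 epithelium-like cells in WT replicate 1, 57 of 177 in Din-KO replicate 1, 89 of 122 in WT replicate 2 and 80 of 135 in Din-KO replicate 2. A UMI of Lgr6 was found in 46.2% of odontoblast-like cells at a median of 16449 UMIs and in 10.0% of pulp-like cells, or 9.17% and 2.87% with cells thinned to 2000 UMIs.

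Lgr5, the marker of intestinal stem cells, was hardly detected in the tooth cells. Of 76 UMIs in all kept cells, 59.2% were in B-like cells, which held 14.7, 10.5, 19.6 and 12.3 CPM (mean 14.3 ± 3.92). The cells were those led by Vpreb3 (228 cells), a gene of B cell precursors, at 28.8, 20.1, 17.2 and 21.5 CPM, and a cycling cluster (71 cells) at 10.1, 9.21, 47.0 and 21.0. The B-like cluster led by Iglc1 and Ms4a1 (291 cells) had 1 UMI. Mesenchyme-like cells were at 0.336 CPM on average over 26 UMIs. No UMI was seen in 579 epithelium-like cells, which by the same 3-cell limit allows a share of cells with a UMI of up to 0.518%, nor in 748 endothelium-like (0.401%) or 1392 macrophage-like cells (0.216%). Expression below detection is not limited by these shares.

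The ligases also differed. Znrf3 was spread over the tooth, at 4.71, 5.94, 11 and 7.58 CPM in pulp-like cells (mean 7.31 ± 2.73), 5.62, 7.70, 7.27 and 8.34 in follicle-like cells (7.23 ± 1.16) and 11.1, 17.6, 17.5 and 16.4 in odontoblast-like cells (15.7 ± 3.08). Odontoblast-like cells were above the others in every library, and pulp and follicle overlapped. Epithelium-like cells held 9.98, 19.5, 14.8 and 28.2 CPM (18.1 ± 7.76), which overlapped with odontoblast-like cells. Endothelium-like cells held 10.4 ± 4.58 CPM.

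Rnf43 was nearly absent from the pulp, where 19 UMIs gave 0.333, 0.399, 0.468 and 0.689 CPM. Follicle-like cells held 12.0, 14.8, 11.1 and 13.2 CPM (mean 12.8 ± 1.59) and epithelium-like cells 16.8, 16.9, 11.7 and 15.9 (15.3 ± 2.46). These levels were steady over libraries and overlapped with each other. The follicle cluster led by Spp1 and Mmp13 held 15.2, 47.4, 16.4 and 24.8 CPM. In the epithelium the cluster led by Shh (329 cells), a signaling gene of the dental epithelium, held 18.8, 17.7, 16.9 and 25.5 CPM, which overlapped with it, and the Amelx cluster 11, 16.0, 10.9 and 9.40. Among odontoblast-like cells, Rnf43 was at 1.01, 0.942, 5.01 and 3.78 CPM. Of its 35 UMIs there, the Bglap and Dspp cluster gave 34 and the Smpd3 cluster 1. The Bglap and Dspp cluster held 34 of 103 odontoblast-like cells in WT replicate 1 and 44 of 166 in Din-KO replicate 1. It held 85 of 132 in WT replicate 2 and 62 of 105 in Din-KO replicate 2. The follicle and the epithelium together thus carried most of the gene, 50.2% and 36.5% of its 630 UMIs. The annotation places a long noncoding RNA gene, 1110028F11Rik, within the Rnf43 locus, and its effect on the counts of Rnf43 was not examined.

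**Figure D3:**
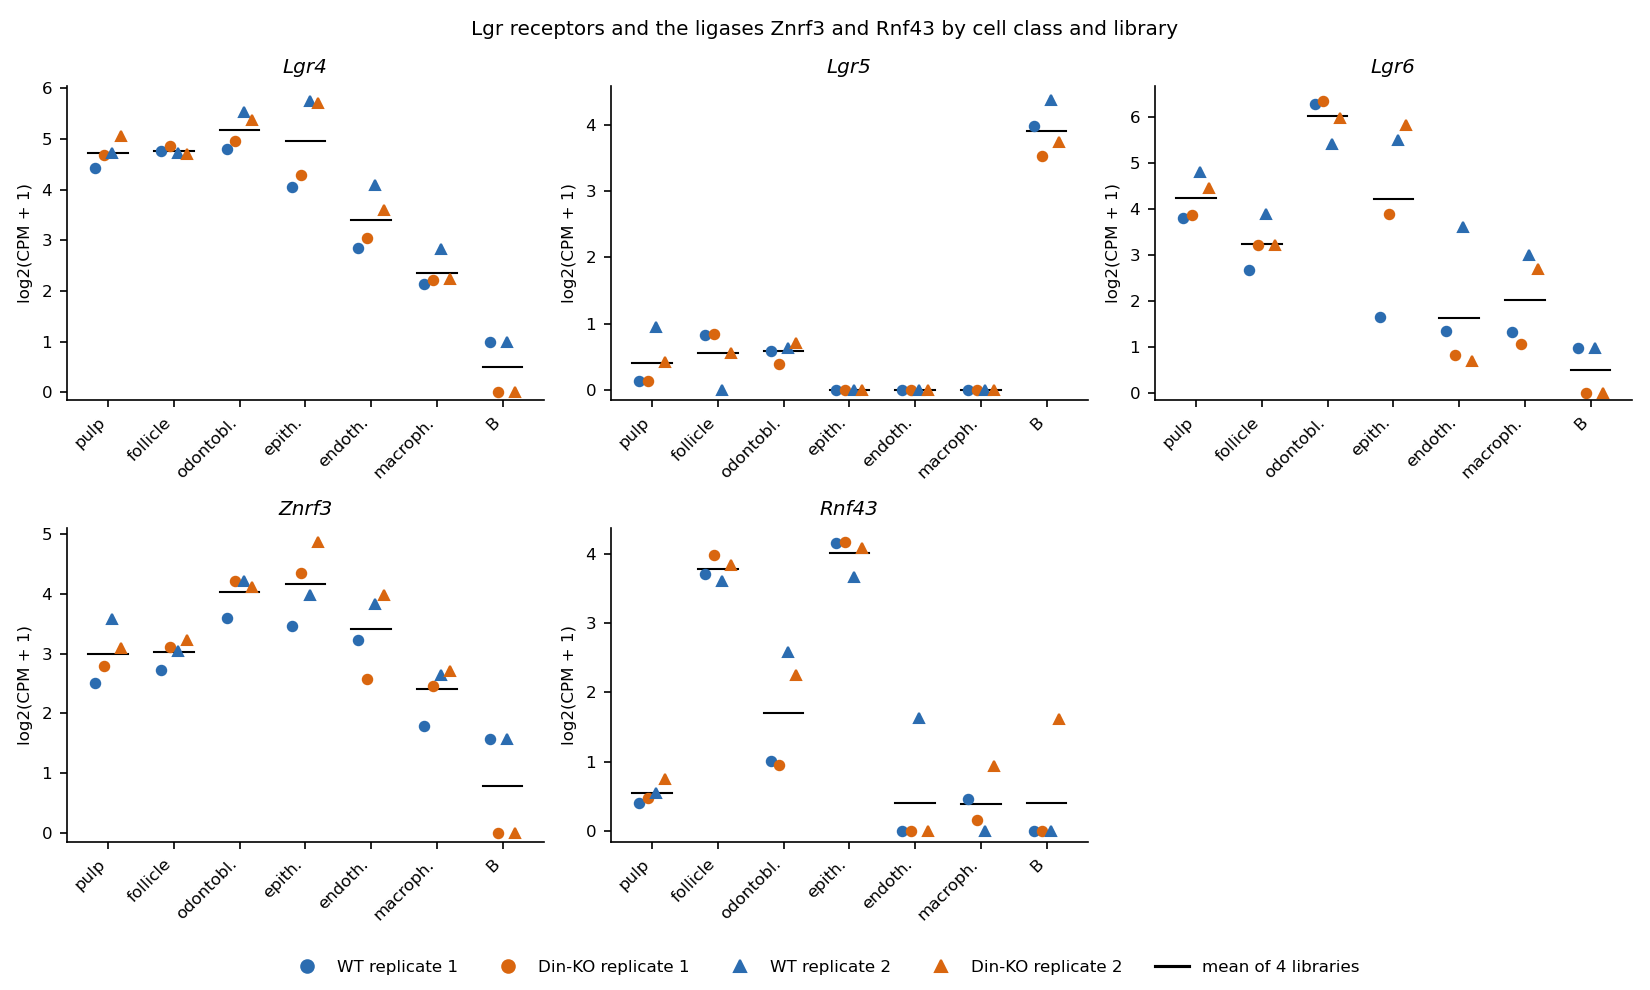
Level of each Lgr receptor and ligase as log2(CPM + 1) in 7 cell classes, 1 point for each library (blue WT, orange Din-KO, circles replicate 1, triangles replicate 2) and the mean of the 4 libraries as a bar. By the mean, Lgr6 is highest in odontoblast-like cells, Lgr5 in B-like cells, and Rnf43 in follicle-like and epithelium-like cells with pulp-like cells under 1 CPM.

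To ask which of these differences between mesenchymal subtypes were steady across libraries, sums per library were compared in edgeR with the library as a block. The block takes out differences in level between libraries, so these p-values measure how far the subtype difference itself varied from library to library. Between dental follicle-like and pulp-like cells 36.8% of all 13641 genes tested passed an adjusted p of 0.05 (17.4% lower and 19.4% higher in follicle), since the subtypes were defined by their expression, and a share of calls near this is no result about the module. Of the 8 members tested, 6 passed, of which Rspo3 and Rnf43 had only 29 and 19 UMIs in pulp-like cells and entered the test through the follicle, where they are high, so that their values are a description and the count is no support. Rspo1 (log2 fold change 3.74, SE 0.17, adjusted p = 1.09e-05), Rspo3 (3.41, SE 0.32, adjusted p = 0.000193) and Rnf43 (4.95, SE 0.24, adjusted p = 1.3e-05) were higher in the follicle. Rspo4 (-2.49, SE 0.11, adjusted p = 9.86e-06), Rspo2 (-3.38, SE 0.22, adjusted p = 3.32e-05) and Lgr6 (-1.03, SE 0.15, adjusted p = 0.00152) were lower.

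For Lgr4 (0.06, SE 0.13) and Znrf3 (0.05, SE 0.20) no difference was detected between follicle and pulp, and Lgr5 had too few counts to be tested. DESeq2 also called 6 of the members, and none of the 6 calls was lost when any 1 library was left out. The sign of the Lgr4 and Znrf3 values changed with single libraries left out.

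Between odontoblast-like and pulp-like cells 34.6% of 12337 genes passed (17.4% lower, 17.1% higher), as did 7 of 7 members tested. All receptors and ligases with enough counts were higher in odontoblast-like cells: Lgr6 (2.17, SE 0.30, adjusted p = 0.00174), Znrf3 (1.44, SE 0.18, adjusted p = 0.00124), Rnf43 (2.44, SE 0.58, adjusted p = 0.0164) and Lgr4 (0.75, SE 0.16, adjusted p = 0.0111). Rnf43, with 19 UMIs in pulp-like and 35 in odontoblast-like cells, had too few counts once either replicate 2 library was left out, so its value is a description. The ligands were lower, with Rspo4 at -2.70 (SE 0.14, adjusted p = 4.05e-05), Rspo1 at -2.64 (SE 0.59, adjusted p = 0.0126) and Rspo2 at -1.26 (SE 0.34, adjusted p = 0.0268). Rspo1 had 17 UMIs in odontoblast-like cells against 425 in pulp-like cells. It entered the test through the pulp, where it is high, so its value is a description and the count of members passing is no support. Rspo3 and Lgr5 had too few counts.

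The calls for Lgr6, Znrf3 and Rspo4 held under every alternative, and the other calls depended on where the border of the subtype was drawn. At a clustering resolution of 0.5, where a cluster of 652 cells with both Smpd3 and Tac1 among its leading genes was called odontoblast-like, Lgr4 was at 0.03 (adjusted p = 0.87), Rspo1 at -0.80 (adjusted p = 0.0527), Rnf43 at 1.29 (adjusted p = 0.0924) and Rspo2 at 0.65 (adjusted p = 0.106), the last with its sign turned. Rspo1 also missed the threshold without Din-KO replicate 1 (-2.20, adjusted p = 0.0613), and Rspo2 without Din-KO replicate 1 (-1.30, adjusted p = 0.0921) or Din-KO replicate 2 (-1.18, adjusted p = 0.118).

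**Figure D4:**
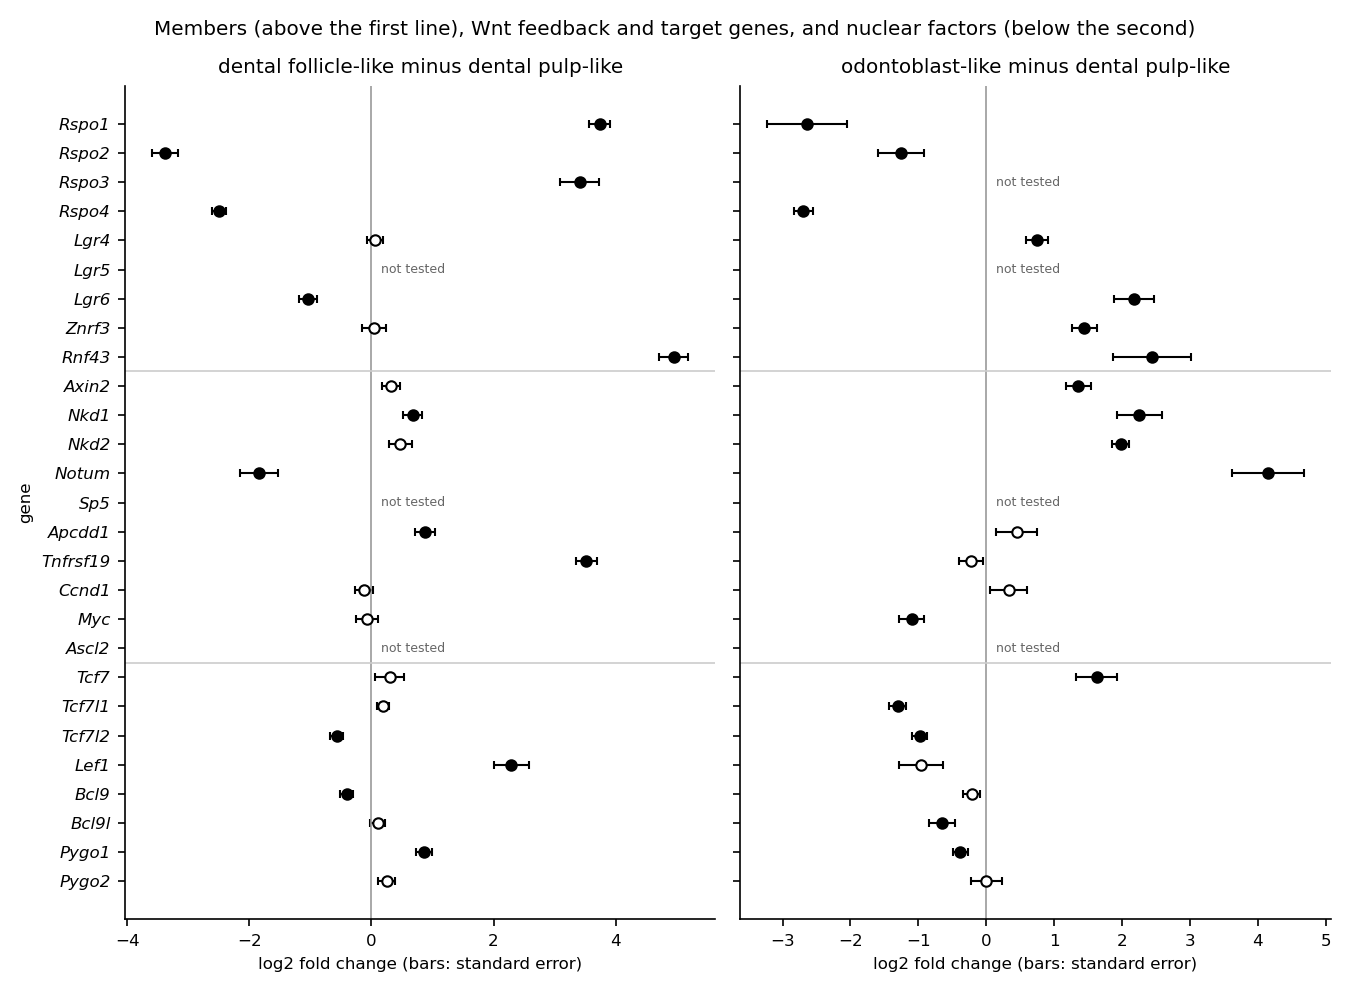
Log2 fold change with its standard error in dental follicle-like (left) and odontoblast-like cells (right) against dental pulp-like cells, for the 9 genes, the Wnt feedback and target genes and the nuclear factors. Filled points passed an adjusted p of 0.05 and open points did not. Rspo1, Rspo3 and Rnf43 lie to the right in the follicle panel, and Lgr6, Notum, Nkd1 and Nkd2 in the odontoblast panel.

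Other genes of the Wnt pathway were compared in the same fits, from 5 lists that were left out of the clustering. In these fits 36.8% of all genes passed in follicle against pulp and 34.6% in odontoblast-like against pulp-like cells. The lists are short, so counts near these shares are no result about a list. Of 8 feedback and target genes tested, 3 were higher and 1 lower in follicle-like than in pulp-like cells, with a median log2 fold change of 0.40 against -0.03 over all genes. Tnfrsf19, a receptor and Wnt target, was at 127, 134, 146 and 183 CPM in follicle and 7.81, 10.1, 19.0 and 19.6 in pulp (3.52). Apcdd1, an inhibitor of Wnt signaling, was at 0.88 and Nkd1, an inhibitor that binds Dishevelled, at 0.68. Notum, which inactivates Wnt ligands by removing their lipid, was lower (-1.84), a call lost at resolution 0.5 (-0.36).

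Between odontoblast-like and pulp-like cells 4 feedback genes were higher and 1 lower of 8 tested, beside 34.6% of all genes, with a median of 0.91 against -0.03. Notum was the largest of them, at 368, 386, 222 and 394 CPM in odontoblast-like cells against 9.14, 12.2, 41.9 and 62.4 in pulp-like cells (4.14, SE 0.53, adjusted p = 0.00134). All 4 libraries were higher in odontoblast-like cells with no overlap. Nkd1 (2.25), its relative Nkd2 (1.98) and Axin2 (1.36), the classic feedback gene of the pathway, were higher as well. Myc was lower, at -1.10.

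Among nuclear factors, 2 of 8 were lower and 2 higher in follicle than in pulp (median 0.22), beside 36.8% of all genes. Lef1, the transcription factor that binds Wnt target sites with beta-catenin, was higher at 101, 136, 91.2 and 79.8 CPM against 9.38, 29.8, 21.5 and 32.7 (2.29), as was the coactivator Pygo1 (0.87), while Tcf7l2 (-0.57) and Bcl9 (-0.41) were lower. In odontoblast-like cells 4 were lower and 1 higher (median -0.52). Tcf7 was higher (1.62), and the largest among the lower ones were Tcf7l1 (-1.30), Tcf7l2 (-0.98) and Bcl9l (-0.65).

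Frizzled receptors and Lrp co-receptors, the proteins that the ligases remove, gave 4 lower and 1 higher of 11 tested in follicle (median -0.29), beside 36.8% of all genes. Fzd1 was higher there (1.51), and Fzd6 (-1.26), Fzd3 (-1.10) and Fzd10 (-0.80) were the largest among the lower. In odontoblast-like cells 1 of 10 was lower, Fzd1 (-1.02, but 0.09 at resolution 0.5), and 1 higher, Fzd7 (0.43). Syndecans and glypicans, cell surface proteoglycans some of which bind R-spondins or Wnts, gave 2 lower and 5 higher of 10 in follicle (median 0.31), among them Sdc3 (-2.04), Gpc2 (-1.05), Gpc1 (2.42), Sdc2 (1.36) and Gpc3 (1.22). In odontoblast-like cells 5 were lower and 3 higher of 10 (median -0.41), among them Gpc5 (-3.89), Sdc1 (-2.09), Sdc4 (-1.15), Gpc1 (2.06), Sdc3 (0.69) and Gpc4 (0.59). Gpc5 had too few counts in odontoblast-like cells for the genotype test there. It entered this contrast through the pulp, so its value and its place in the count are a description. Of the 9 cytoplasmic transducers, Ctnnb1, the gene of beta-catenin, was lower in follicle (-0.64). In odontoblast-like cells Apc (0.79), Gsk3b (0.73) and Ctnnb1 (0.64) were higher. Among the calls for the pathway genes named above, those for Fzd10, Bcl9, Notum, Apcdd1, Nkd1 and Tcf7l2 in follicle and for Fzd1, Fzd7, Bcl9l, Ctnnb1, Sdc3 and Gpc4 in odontoblast-like cells were each lost under at least 1 alternative. The call for Axin2 in odontoblast-like cells was not followed through the alternatives.

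The comparison that the study was made for, Din-KO against WT, gave no call for any member in the main edgeR fits, which had no replicate block, or in DESeq2. The transcript of Din itself, listed as din, was at 36.3 CPM in WT replicate 1, 22.7 in Din-KO replicate 1, 28.5 in WT replicate 2 and 28.3 in Din-KO replicate 2 over mesenchyme-like cells, nearly equal in the replicate 2 libraries. Counts are per gene and the position of the counted reads was not examined, so this level does not check the knockout. In edgeR's test of mesenchyme-like cells 0% of 15287 genes passed (152 at an unadjusted p under 0.05, 15 by DESeq2). Of the 8 members tested, 0 passed, 0 were under an unadjusted 0.05, and DESeq2 called 0. With 2 libraries against 2, an exact permutation test of one gene cannot give a two-sided p under 0.333.

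Rspo2 was the member of smallest p in the mesenchyme. It was at 12.4 and 10.6 CPM in the WT libraries and 22.2 and 14.6 in the Din-KO libraries, so the groups did not overlap (log2 fold change 0.65, SE 0.30, unadjusted p = 0.0898, adjusted p = 1.00). Of the 8 members 1 had groups that did not overlap, against 17.8% of all genes tested. Rspo4 was at 421 and 98.8 in WT and 337 and 64.9 in Din-KO, where the replicate numbers differed more than the genotypes (-0.40, SE 1.04). Of the mesenchyme-like cells, 2209 of 2650 in WT replicate 1 and 2503 of 3029 in Din-KO replicate 1 were pulp-like. In replicate 2 this held for 290 of 846 in WT and 224 of 632 in Din-KO. The part of this mix in the pooled values was not tested. The values for the other genes lay between -0.19 (Rspo1, SE 0.56) and 0.90 (Rspo3, SE 1.38). The standard errors are wide enough that changes of this size could not be told from none.

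Within pulp-like cells 0% of 13989 genes passed (182 at an unadjusted p under 0.05, 9 by DESeq2), and 0 of 6 members. Rspo1 was at 7.0 and 7.49 CPM in WT and 10.5 and 12.1 in Din-KO (0.63, SE 0.27, unadjusted p = 0.0619), the 1 member of 6 whose groups did not overlap, against 21.6% of genes. In its main pulp cluster, led by Smoc2, it was at 44.3 and 35.0 in WT and 48.1 and 64.6 in Din-KO. That cluster gave 161 of 2209 pulp-like cells in WT replicate 1, 451 of 2503 in Din-KO replicate 1, 25 of 290 in WT replicate 2 and 37 of 224 in Din-KO replicate 2, and its part in the pulp value was not tested. Rspo2 was at 14.8 and 32.8 in WT and 28.7 and 42.4 in Din-KO (0.62, SE 0.39), with groups that overlapped, and its value lay between 0.16 and 1.18 with any 1 library left out. Within each replicate number the Din-KO library was the higher. With the replicate number as a block in edgeR, Rspo2 was called (0.71, SE 0.17, adjusted p = 0.0156), as were 375 of 13989 genes. Nothing says that the replicate numbers mark a batch, so whether this block is right is not known. The Tac1 cluster, where Rspo2 was high, gave 143, 293, 36 and 54 of the pulp-like cells of WT 1, Din-KO 1, WT 2 and Din-KO 2, and its part in the pulp value was not tested. Rspo4 was at 530 and 260 against 450 and 182 (-0.33, SE 0.56).

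In dental follicle-like cells 0.00772% of 12954 genes passed, which is 1 gene, the Y-linked Ddx3y, and DESeq2 called 40 genes but no member. Of the 8 members tested, 0 passed and 0 were under an unadjusted 0.05. Rspo1 was at 104 and 132 CPM in WT and 146 and 93.6 in Din-KO (-0.03, SE 0.30). Rspo3 was at 3.10 and 12.9 against 5.53 and 24.2 (0.80, SE 0.83), and Rnf43 at 12.0 and 11.1 against 14.8 and 13.2 (0.22, SE 0.26). Groups did not overlap for Rnf43, Rspo2 and Znrf3, 3 of 8 members, against 23.1% of genes.

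Odontoblast-like cells gave 0% of 11034 genes (103 at an unadjusted p under 0.05, 2 by DESeq2) and 0 of 6 members, of which none had groups that did not overlap, against 21.7% of genes. Lgr6 was at 77.7 and 42 CPM in WT and 81.3 and 62.4 in Din-KO (0.20, SE 0.34). Among the other classes with at least 20 cells in every library, no member passed in B-like (1 tested, Lgr5, and 0% of 7223 genes), endothelium-like (3 tested, against 0.0537% of 11173 genes), epithelium-like (5 tested, 0% of 11493) or macrophage-like cells (5 tested, 0.0727% of 11008), and no member could be tested in monocyte or dendritic-like cells. The genotype effect in follicle was also tested against that in pulp, which gave 0% of 13641 genes (324 at an unadjusted p under 0.05, 1 by DESeq2) and no member. Rspo1 had the smallest p, 0.117, with a difference of -0.56 (SE 0.31).

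No gene of the 5 pathway lists passed in the main edgeR fits of genotype, which had no replicate block. These genes were not followed through the alternatives of the genotype tests. In mesenchyme-like cells the median log2 fold changes of the lists were 0.04 for Wnt receptors, -0.09 for syndecans and glypicans, 0.05 for cytoplasmic transducers, -0.004 for nuclear factors and 0.38 for feedback and target genes, beside -0.02 over all genes and 0.14 over the 8 members. Within subtypes the median of the feedback and target genes was smaller. It was 0.184 in pulp-like, 0.187 in follicle-like and 0.237 in odontoblast-like cells, beside -0.008, -0.019 and -0.029 over all genes. The part of the mix of subtypes in the pooled value was not tested.

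**Figure D5:**
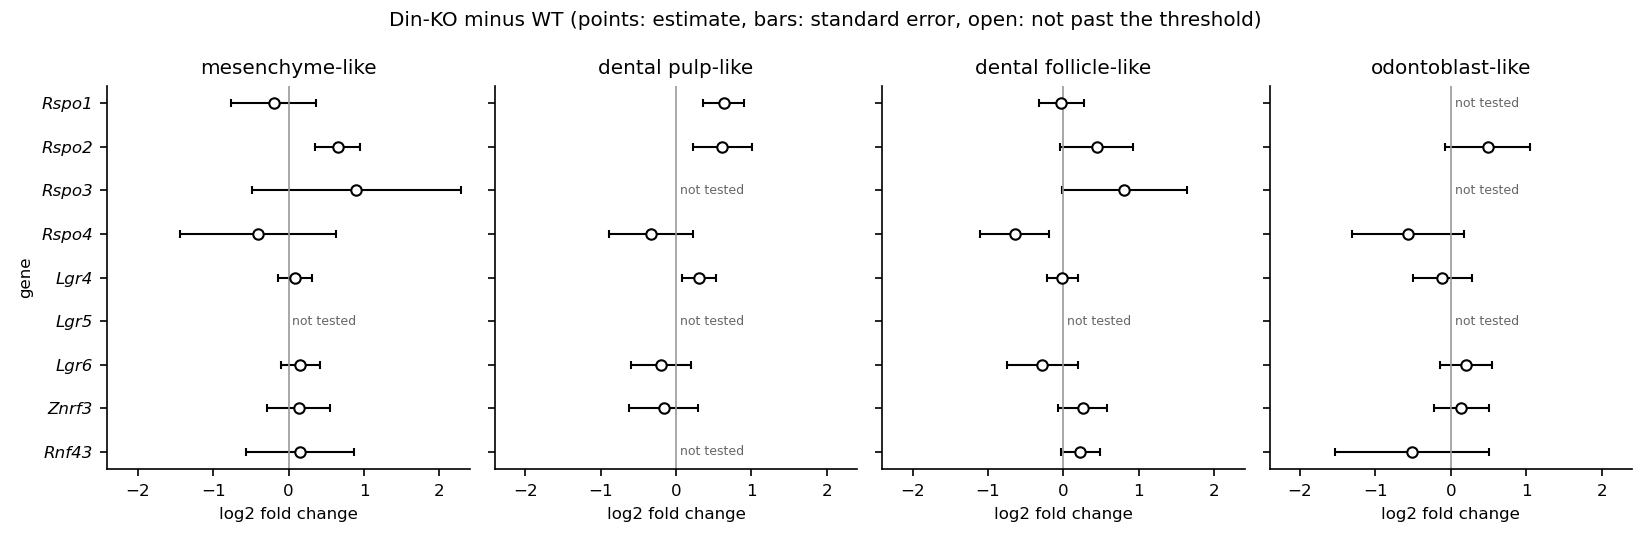
Log2 fold change of Din-KO against WT with its standard error for the 9 genes in mesenchyme-like cells and in the 3 subtypes. All points are open, since none passed an adjusted p of 0.05, and genes with too few counts are marked as not tested.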

How the data were processed

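The authors sequenced 10x 3' libraries, aligned them to mm10/GRCm38 with Cell Ranger (6.0.2 per the file headers) and deposited the raw UMI counts of each gene in each barcode. Filters (at least 1000 genes, at most 10% mitochondrial and 3% hemoglobin UMIs) and clustering (integration, cell cycle regressed, resolution 1) followed the study's methods, in Seurat 5.3.0 on 2000 variable genes and 30 components, with 58 genes of interest held out. Clusters with at least 3 detected markers were named. Exceptions were clusters whose leading genes held more markers of another class, or at least 3 mast cell genes. Clusters of low UMI counts with no marker among their leading genes also stayed unnamed. Free RNA was not removed. Scrublet (scanpy 1.11.5) called 0.946% of cells doublets, and all were kept. Counts were summed per library and class, and tested with edgeR 4.0.16 (filterByExpr, TMM factors, quasi-likelihood F-test, p adjusted by Benjamini-Hochberg, threshold 0.05), in subtype contrasts with the library as a block. Nothing says that libraries of a group came from separate cultures or mice, so p-values measure the spread between these samples, which may be technical. In subtype contrasts they measure only how far the subtype difference varied between libraries. The tests were tried on simulated counts. Members and lists were chosen with earlier results of these data known. Named pathway genes were the 3 in each direction with the largest fold in a list among those called, or all of 5 or fewer. Alternatives (DESeq2 1.42.0, other size factors, no filter, each library left out, blocks, resolution 0.5) are in the closing section. Further alternatives left out the highest 5% of doublet scores in each library, or kept only cells with Xist and no Y-linked transcript. R was version 4.3.3. One result on likeness of pattern is not reported here.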

Additional observations from a re-analysis of the deposited data

Results flagged for a closer look

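Znrf3 was higher in both Din-KO libraries than in both WT libraries in epithelium-like cells (23.9 against 12.4 CPM on average) and in dental follicle-like cells (8.02 against 6.44), and lower in B-like cells (0 against 1.96, from 4 UMIs in all). These opposite directions are why it is listed, and the difference between the classes was not tested. None of these differences passed edgeR's test where it could be run. In follicle-like cells 23.1% of all genes tested had genotype groups that did not overlap. That share was not computed for epithelium-like or B-like cells.

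The cells and barcodes outside the comparisons also held some signal. In the unnamed cluster 19 (180 cells, led by Gzma and mast cell proteases) the Din-KO libraries averaged 3.38 CPM of Rspo1 and 24.2 CPM of Rspo4, from 5 and 30 UMIs over all libraries. Both are listed because each Din-KO library was above the WT libraries, so this order is the rule and not a result. The opposite direction was not searched, and the share of all genes separated in this way was not computed. In barcodes of over 50% hemoglobin, a limit set after seeing the data, Znrf3 averaged 6.24 CPM in the Din-KO libraries. By replicate number, this average came from 9.87 and 2.61 CPM, on only 2 and 1 UMIs. The WT levels were 0 and 2.58 CPM, on 0 and 1 UMIs. The genotypes were thus nearly equal in replicate 2, and these counts are too few to show a difference.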

How the results depend on the processing

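Counts of genes called between Din-KO and WT rose under most alternatives. Members were followed through them in mesenchyme-like cells, and in the subtypes where a genotype fold change is given above. None of these was called under any alternative except Rspo2 in pulp-like cells with the replicate number as a block in edgeR (0.71, adjusted p = 0.0156). DESeq2 called 15 genes in mesenchyme-like, 9 in pulp-like, 40 in follicle-like, 2 in odontoblast-like, 5 in B-like, 50 in endothelium-like, 5 in epithelium-like, 44 in macrophage-like and 12 in monocyte or dendritic-like cells, and 1 for the difference between follicle and pulp. Without the filter on low counts there were 7, 52, 150 and 27 in mesenchyme-like cells and the 3 subtypes in the same order, and 11 for the difference. The replicate numbers are shared by the groups, but nothing says that they mark a batch, and with 2 pairs the correlation of same-numbered deviations (0.790, 0.628, 0.603 and 0.641) does not settle it. With the replicate block, calls were 134, 375, 42 and 11, then 38 in B-like, 187 in endothelium-like, 165 in macrophage-like and 72 in monocyte or dendritic-like cells, and 0 in epithelium-like cells. Resolution 0.5 gave 2 in pulp-like cells. Keeping only cells with Xist and without Y-linked transcripts gave 0 in follicle-like cells. With 1 library left out, so that a lone library is assumed to vary like the others, counts ranged from 2 to 4 in mesenchyme-like, 0 to 40 in pulp-like, 1 to 39 in follicle-like, 0 to 1 in odontoblast-like, 8 to 78 in B-like, 40 to 141 in endothelium-like, 0 to 113 in macrophage-like and 2 to 35 in monocyte or dendritic-like cells, and from 0 to 11 for the difference. The cause of these shifts was not tested.

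Between subtypes, follicle against pulp gave 3192 genes without the library block, and odontoblast against pulp 2508 to 3788 with a library left out. Values that changed sign at resolution 0.5 were Lgr4 in follicle against pulp (-0.14), and Rspo2 (0.65) and Fzd1 (0.09) in odontoblast against pulp. With a library left out, follicle against pulp ranged from -0.04 to 0.20 for Lgr4 and -0.06 to 0.25 for Znrf3. With either replicate 2 library left out, Rnf43 had too few counts to be tested in odontoblast against pulp. For Din-KO against WT in mesenchyme-like cells the ranges were -0.74 to 0.76 for Rspo1, -1.55 to 2.89 for Rspo3, -2.04 to 1.02 for Rspo4, -0.09 to 0.31 for Lgr4, -0.06 to 0.44 for Lgr6, -0.25 to 0.69 for Znrf3 and -0.66 to 1.04 for Rnf43. They were -1.18 to 0.38 for Rspo4 in pulp-like cells, -0.39 to 0.28 for Rspo1 and -0.58 to 2.18 for Rspo3 in follicle-like cells, and -0.14 to 0.66 for Lgr6 in odontoblast-like cells. Mean levels moved by less than 1 SD in 244 alternatives and by more in 8, and 27 shares of cells with a UMI moved by more than 1 SD when cells were thinned, against 9 that did not. In odontoblast-like cells at resolution 0.5, Rspo1 was at 4.68, Rspo2 at 26.9 and Rspo4 at 85.2 CPM. Depth limits Lgr5 and Rspo3 most, with 76 and 378 UMIs in all.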

Other observations

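Across 8 classes (B-like, endothelium-like, epithelium-like, macrophage-like, monocyte or dendritic-like and the 3 mesenchymal subtypes), the pattern of each gene was compared with that of 12017 genes by Pearson's r of log2(CPM + 1) averaged over the libraries. The classes share libraries and 8 points are few, so the values are a description. Among the genes most like Rspo1 were Sfrp2 (r = 0.966), Gm26771, Tmem215 and Ephb2. For Rspo2 they were A930002C04Rik (0.980), Trpm1, Aff2, Adamts3 and B3galt1, for Rspo3 S100b (0.981), Nptx1, Gm17501, P4ha3 and Podnl1, and for Rspo4 Taco1os (0.983), Fabp3, Pde1a, Asphd2 and Celf5. Lgr4 was followed by Pfkm (0.989), Slc22a17, Fbxo25, Igf1r and Kctd15. Lgr6 was followed by Clba1 (0.988), Farp2, Fhod3, Sema5a and P4ha2. Znrf3 had Phldb1 (0.976), Fitm2, Abhd18, Nhsl1 and Sh3pxd2a beside it, and Rnf43 had Fabp5 (0.970), Plb1, 1700023F06Rik, Entpd3 and Cldn1. Lgr5 had under 200 UMIs and was not compared.

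Of the macrophage-like clusters, the one led by Ccl2 (138 cells), whose cells held 2.09 times the median UMIs of their own libraries, gave 332 UMIs of Rspo4, at 154, 132, 25.4 and 6.26 CPM in WT 1, Din-KO 1, WT 2 and Din-KO 2, and 23 UMIs of Rspo1, at 3.6, 5.06, 0 and 81.3 CPM. Whether it holds doublets was not tested. The unnamed cluster led by S100a4 (47 cells), whose cells held 0.308 times the median UMIs of their libraries, was at 148, 176, 409 and 147 CPM of Rspo4 on 34 UMIs.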
